A study of Mus musculus with 9 samples.

Results

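Secreted proteins that are known from, or were grouped with, the fluid of the mouse prostate are the subject here, and their genes were chosen by name: Sbp, Apof, Pbsn, Msmb, Azgp1, Spink1, Spink5, Tgm4, Defb50 and Ren1. All 10 were found by symbol among the 49585 genes listed for each library. RNA was sequenced from 9 organoid libraries, 3 for each of 3 media, grown for 5 days from flow-sorted prostate basal cells of C57BL/6J mice. BM was advanced DMEM/F12 with B27, N-acetylcysteine, EGF, the TGF-β receptor inhibitor A83-01, the BMP antagonist Noggin and the ROCK inhibitor Y-27632. R was BM with R-spondin1, an enhancer of Wnt signaling, at 500 ng/ml, and RD7 was R with dihydrotestosterone (DHT), the potent androgen, at 100 nM. All groups therefore carried the BM factors, and DHT was given only together with R-spondin1. The labels do not state the age of the mice or whether the libraries of a medium came from separate animals or sorts, so p-values measure only the spread between these libraries.

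The prostate epithelium holds basal cells, which line the basement membrane, and luminal cells, which make the secretions under the control of androgens. Androgens change the transcription of genes through androgen response elements in DNA, and castration lowers many secretory transcripts in the gland. Basal cells can give rise to luminal cells in organoid culture and after injury. The question put to the secretory genes is which of them were transcribed in basal-derived organoids in each medium.

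DHT on top of R-spondin1 was followed by higher levels of Sbp, Spink5, Azgp1, Apof, Defb50 and Pbsn, whereas Tgm4 did not pass the test and Ren1 had no reads in any library. Spink5 also rose with R-spondin1 alone. Spink1 and Msmb had at most 8 and 4 reads in any medium and were not tested. Levels are given as FPKM, reads scaled to the length of the gene and to the library total, and reads are the whole reads read back from FPKM. Libraries held between 6505859 reads (BM 1) and 24141017 reads (BM 2). Genes with at least 0.5 CPM (reads scaled to the library total alone) in at least 3 libraries, 15921 in all, were tested with limma on log2(FPKM + 0.5), and a gene was called at a Benjamini-Hochberg adjusted p under 0.05 over all genes tested. Of the 10 genes, 7 passed this filter. Sbp, Apof, Pbsn and Defb50 passed through the RD7 libraries alone, so that a difference was bound to appear in them, and the number called among the 7 is a description only. In RD7 against R, limma called 6 of the 7 genes tested higher and none lower, beside 13.3% of all genes tested higher and 17.7% lower.

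**Figure D1:**
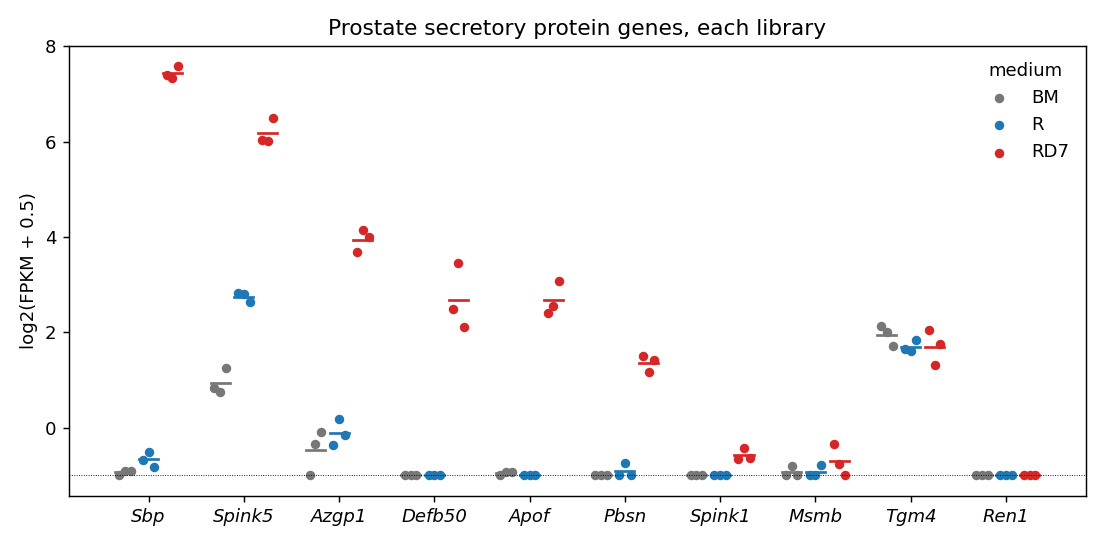
Level of each gene in each library as log2(FPKM + 0.5), colored by medium, with a short line at the mean of the 3 libraries and a dotted line at the value of a gene with no reads. The RD7 points of Sbp, Spink5, Azgp1, Defb50, Apof and Pbsn lie above all BM and R points, and those of Tgm4 overlap them.

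Gene positions are given on GRCm38 from GENCODE M21. The organoids expressed the markers of their source. The summed level of 6 basal markers (Krt5, Krt14, Krt15, Trp63, Col17a1 and Itga6) spanned 7204 to 8057 FPKM in BM, 9810 to 10394 in R and 8392 to 9465 in RD7, and that of 7 luminal markers was 3439 to 4435, 2711 to 3207 and 3783 to 4784. With DHT, 4 of the basal markers fell and none rose, and 4 of the luminal markers rose and 2 fell. Of these, the falls of the basal markers Trp63 and Col17a1 and of the luminal marker Krt18 (limma adjusted p of 0.03, 0.027 and 0.041) were lost without some libraries (0.055 to 0.12, 0.06 to 0.098 and 0.052 to 0.14). Those of Trp63 and Krt18 were also lost with the replicate block (0.064 and 0.084), and all 3 with no filter (0.067, 0.065 and 0.073). The fall of Krt18 was lost as well with TMM scaling (0.084), median-of-ratios scaling (0.096) and limma-voom (0.053). In bulk RNA, fewer cells of a type and less RNA per cell cannot be told apart. Of 5 neuroendocrine markers, Chga and Insm1 were at 0 in RD7, and the list summed to at most 0.814 FPKM in any library. The sum was at most 0.555 FPKM for 5 endothelial markers. For 6 immune markers it spanned 0.856 to 1.61 FPKM in BM, 2.87 to 3.78 in R and 2.13 to 4.09 in RD7. Both immune markers tested rose with R-spondin1, the macrophage genes Lyz2 from 0 to 0.648 ± 0.00709 FPKM (limma adjusted p = 0.0059) and Cd68 from 1.21 ± 0.364 to 2.64 ± 0.434 (0.03). Lyz2 had no reads in BM and passed the filter through the other media alone, so that its rise was bound to appear. The Cd68 call was lost without BM 1, BM 2 or any R library (0.059 to 0.13), with the replicate block (0.054), with no filter (0.07) and with limma-voom (0.074). The sum of 5 urothelial markers was 209 to 317 FPKM in BM, 37.9 to 45.6 in R and at most 25.4 in RD7. The uroplakin genes Upk3a, Upk1a and Upk1b fell with R-spondin1, Upk3a from 92.9 ± 26.7 to 1.57 ± 0.294 FPKM (limma adjusted p = 5.0e-07), and Krt20 rose. With DHT, Upk1a and Upk1b fell further and Upk3a rose to 2.91 ± 0.761 FPKM (limma adjusted p = 0.04), a call lost without BM 1, any R library, RD7 2 or RD7 3 (0.051 to 0.14), with the replicate block (0.077), with a pseudocount of 1 (0.06), with no filter (0.082) and with limma-voom (0.081). The summed level of 7 mesenchymal markers was 4.89 to 6.88 FPKM in BM, 19.9 to 24.4 in R and 64.1 to 91.8 in RD7. Nearly all of this was Dcn, at 4.79 ± 1.27, 21.9 ± 2.71 and 76.6 ± 14.1 FPKM (SD, n = 3), whereas the collagen genes Col1a1 and Col3a1 had means of at most 0.361 FPKM in every medium and Lum was at 0 in BM and RD7. Of the 6 mesenchymal markers tested, Dcn alone rose at each step. With DHT, Col1a1, Col3a1 and Pdgfrb fell (limma adjusted p of 0.03, 0.006 and 0.023). The falls of Col1a1 and Pdgfrb were each lost in 9 of 26 other settings. The part of these cells in the results below was not tested.

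Promoter sequences were read from the RefSeq table (GRCm38.p6) for 5 of the 10 genes: Sbp, Pbsn, Azgp1, Tgm4 and Ren1. Apof, Msmb and Defb50 had no entry there. Spink1 and Spink5 were left out of the promoter reading by choice, so nothing is said of their motifs. The 250 bases before the start nearest to the annotated gene start are shown for 3 genes that rose with DHT and for Tgm4, which was not called, so that they can be compared. Each is written 5′ to 3′ on the strand of its gene. Capitals mark exact matches, on either strand, to AGAACA, the hexamer that forms each arm of the androgen response element, or to TATAAA, the TATA box. The window of Sbp lies at chr17:23941428-23941677 (plus strand), Pbsn at chrX:77853501-77853750 (minus strand), Azgp1 at chr5:137981271-137981520 (plus strand) and Tgm4 at chr9:123034491-123034740 (plus strand).
Sbp: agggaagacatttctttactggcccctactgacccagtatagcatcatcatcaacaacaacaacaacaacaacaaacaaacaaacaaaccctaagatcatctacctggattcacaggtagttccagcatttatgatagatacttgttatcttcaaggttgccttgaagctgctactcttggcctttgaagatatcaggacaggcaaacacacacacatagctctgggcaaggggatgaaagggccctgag
Pbsn: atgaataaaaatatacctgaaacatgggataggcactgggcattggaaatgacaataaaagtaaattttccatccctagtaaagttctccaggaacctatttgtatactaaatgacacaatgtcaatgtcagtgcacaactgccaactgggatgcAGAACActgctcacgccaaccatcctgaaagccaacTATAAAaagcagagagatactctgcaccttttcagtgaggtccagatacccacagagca
Azgp1: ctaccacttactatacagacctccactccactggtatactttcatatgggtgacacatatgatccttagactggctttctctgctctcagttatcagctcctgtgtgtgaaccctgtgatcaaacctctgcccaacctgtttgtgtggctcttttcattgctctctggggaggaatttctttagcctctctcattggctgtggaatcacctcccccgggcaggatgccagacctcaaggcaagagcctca
Tgm4: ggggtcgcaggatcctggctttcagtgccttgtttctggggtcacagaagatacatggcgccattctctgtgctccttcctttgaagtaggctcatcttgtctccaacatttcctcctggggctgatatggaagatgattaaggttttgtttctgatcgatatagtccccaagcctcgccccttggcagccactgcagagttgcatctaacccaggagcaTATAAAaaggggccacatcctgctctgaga
Pbsn held AGAACA at bases -95 to -90 and TATAAA at -59 to -54, counted back from the RefSeq start, which lies 123 bases inside the GENCODE gene. Tgm4 held TATAAA at -30 to -25 and Ren1 at -29 to -24, and neither held the hexamer. The windows of Sbp and Azgp1 held neither motif. The full element, AGAACA and TGTTCT with any 3 bases between them, was in none of the 5 windows. Over all 32851 promoter windows of the table, 16.1% held the hexamer on either strand, 12.4% held TATAAA and 0.00913% held the full element. A missing match says only that these letters are not in the window.

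Sbp (ENSMUSG00000024128, chr17:23941672-23945607, plus strand) encodes spermine-binding protein, an abundant androgen-dependent secretion of the ventral lobe. Its level was 0, 0.0282 and 0.0347 FPKM in BM 1 to 3, 0.128, 0.205 and 0.0628 in R, and 169, 161 and 191 in RD7. All RD7 libraries were far above all others, and the R libraries, with 12 reads in all, lay just above the BM libraries, with 2. From R to RD7 the mean rose 1319-fold, from 0.132 ± 0.0710 to 174 ± 15.1 FPKM (SD, n = 3). The log2 fold change of 8.11 ± 0.15 (SE, limma adjusted p = 5.1e-10) was the highest of the 15921 genes tested. Sbp ranked 310 by mean level among 22955 genes above 0 in RD7 and 17357 among 23424 in R. Between R and BM, Sbp was not called (log2 fold change 0.27 ± 0.15, limma adjusted p = 0.26), with a read ratio of 4.95 (95% counting interval 1.10 to 45.6). This interval, like the others given here, covers counting error only, because amplified reads without molecular identifiers are not independent molecules.

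Pbsn (ENSMUSG00000000003, chrX:77837901-77853623, minus strand) encodes probasin, a lipocalin whose promoter is widely used to drive transgenes in prostate epithelium. It was at 0 in all BM libraries, at 0, 0.0953 and 0 FPKM in R 1 to 3, where R 2 had 2 reads, and at 2.35, 1.74 and 2.17 FPKM in RD7. The 38, 30 and 33 reads in RD7 stood clear of every other library. The rise from R to RD7 was 57.0-fold in reads (95% counting interval 15.4 to 477), and the log2 fold change was 2.28 ± 0.13 (limma adjusted p = 5.8e-07). Although Pbsn was called, its mean of 2.09 ± 0.314 FPKM in RD7 lay above only 52.0% of the genes with reads there, whereas Sbp lay above 98.6%.

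Apof (ENSMUSG00000047631, chr10:128268671-128270153, plus strand) encodes apolipoprotein F, a lipoprotein-associated protein that regulates lipid transfer. It had 1 read each in BM 2 and BM 3 (0.0215 and 0.0264 FPKM), none in BM 1 or in any R library, and stood at 4.81, 5.40 and 7.91 FPKM in RD7. RD7 did not overlap the other media, at 6.04 ± 1.65 FPKM (SD, n = 3). Its 623 reads in RD7 were at least 235-fold above 3 reads over the R group, and limma gave a log2 fold change of 3.68 ± 0.17 (adjusted p = 1.7e-07). The length of Apof that made its reads whole was 1930 bases, longer than the 1258 bases of merged exons in the annotation used here. Apof is best known from the liver, and 2 of 6 hepatocyte markers were tested and rose with DHT. Ahsg rose from 0.0194 ± 0.0337 FPKM in R, 2 reads, to 1.45 ± 0.681 in RD7 (limma adjusted p = 9.5e-05) and Ttr from 0 to 0.747 ± 0.395 (0.0035). Both passed the filter through the RD7 libraries alone, so that a rise was bound to appear in them. Alb had 6 reads in RD7, Serpina1a and Fgb were at 0 there, and the list summed to 0.0562 to 0.378 FPKM in BM, 0.0507 to 0.116 in R and 1.38 to 3.54 in RD7. Its part in the level of Apof was not tested.

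Azgp1 (ENSMUSG00000037053, chr5:137981520-137990233, plus strand) encodes zinc-α2-glycoprotein, a secreted protein with the fold of an MHC class I molecule. Its level was 0, 0.283 and 0.444 FPKM in BM 1 to 3, 0.272, 0.641 and 0.402 in R, and 12.3, 17.1 and 15.6 in RD7. BM and R overlapped and were not called apart (log2 fold change 0.37 ± 0.25, limma adjusted p = 0.37). The mean rose 34.2-fold from 0.438 ± 0.187 FPKM in R to 15.0 ± 2.44 in RD7 (SD, n = 3), a log2 fold change of 4.05 ± 0.25 (limma adjusted p = 1.3e-06). Azgp1 had at least 0.5 CPM in 1 BM and 2 R libraries, so that, unlike Sbp, Apof, Pbsn and Defb50, it would have been tested without the RD7 libraries.

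Defb50 (ENSMUSG00000058568, chr8:21823539-21831296, plus strand) encodes a β-defensin, a small cationic antimicrobial peptide, with expression known from the prostate. It had no reads in the 6 BM and R libraries and 34, 75 and 24 reads in RD7 1 to 3, or 5.09, 10.5 and 3.81 FPKM. RD7 2 was the highest, 2.76 times RD7 3, which was the widest spread within RD7 among the 6 genes called. The 133 reads in RD7 were at least 50.1-fold above 3 reads over the R group, and the log2 fold change was 3.68 ± 0.28 (limma adjusted p = 5.7e-06).

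Spink5 (ENSMUSG00000055561, chr18:43963235-44022501, plus strand) encodes LEKTI, a precursor with many Kazal-type inhibitor domains that blocks kallikrein-related peptidases, best known from skin. Its level was 1.28, 1.18 and 1.88 FPKM in BM 1 to 3, 6.56, 6.45 and 5.68 in R, and 64.7, 64.2 and 89.5 in RD7. The 3 media did not overlap at either step. The mean rose 4.31-fold with R-spondin1, from 1.45 ± 0.376 to 6.23 ± 0.478 FPKM (1.80 ± 0.18 on the log2 scale, limma adjusted p = 1.3e-04). It rose a further 11.7-fold with DHT, to 72.8 ± 14.5 FPKM (3.43 ± 0.18, limma adjusted p = 4.9e-07). Spink5 was the only 1 of the 7 genes tested that was called between R and BM, where limma called 4.36% of all genes tested higher and 5.63% lower. Squamous markers, which mark the epithelium in which LEKTI is best known, moved differently across the media. The summed level of 8 of them was 88.1 to 115 FPKM in BM, 264 to 282 in R and 94.3 to 133 in RD7. With R-spondin1, 6 of the 7 squamous markers tested rose and none fell, and with DHT 5 fell and Krtdap rose (limma adjusted p = 0.037), a call lost without R 2, R 3 or any RD7 library (0.052 to 0.13), with a pseudocount of 0.1 (0.055), with no filter (0.09) and with the replicate block (0.062). Among the squamous markers, the rise and the fall of Sbsn were lost without R 1 (limma adjusted p of 0.051 and 0.056) and the fall also without R 3 (0.05).

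**Figure D2:**
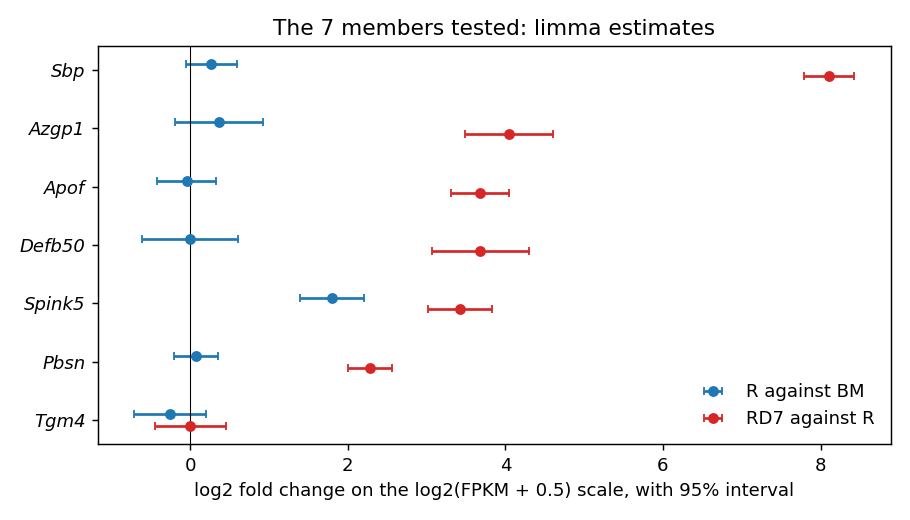
Limma log2 fold changes, on the log2(FPKM + 0.5) scale, of the 7 genes tested, for R against BM (blue) and RD7 against R (red), with 95% intervals. The intervals of RD7 against R lie above 0 for 6 genes, and that of R against BM lies above 0 for Spink5.

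Tgm4 (ENSMUSG00000025787, chr9:123034726-123067561, plus strand) encodes the prostate transglutaminase, which cross-links semen proteins into the copulatory plug. It was the most abundant of the 10 genes in each BM library and did not follow the others. Its level was 3.88, 3.50 and 2.80 FPKM in BM 1 to 3, 2.63, 2.56 and 3.05 in R, and 3.63, 1.97 and 2.85 in RD7, with all media overlapping. The log2 fold change from R to RD7 was 0.00 ± 0.20 with a 95% interval of -0.45 to 0.45, and from BM to R it was -0.26 ± 0.20 (-0.71 to 0.20). Neither was called (limma adjusted p of 1 and 0.44). Tgm4 shares 25.0% of its exon bases with Gm49323 on the same strand and Zdhhc3 on the opposite strand. The library kit does not mark strand, so reads of these genes cannot be told apart there.

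The other genes had few reads or none. Spink1 (ENSMUSG00000024503, chr18:43728082-43737557, minus strand) encodes a Kazal-type trypsin inhibitor of pancreas and prostate. It had no reads in BM or R and 2, 4 and 2 reads in RD7 1 to 3 (0.132, 0.248 and 0.140 FPKM), so that every RD7 library lay above the other media, and the 8 reads were above the floor of 3 reads over the group. A gene length of 421 in place of 842 bases would make these 1, 2 and 1 reads, and both lengths give whole reads. Msmb (ENSMUSG00000021907, chr14:32142023-32158370, plus strand) encodes β-microseminoprotein, a major component of prostate fluid. It had 1 read in BM, 1 in R and 4 in RD7, and the ratio of RD7 to R of 4.52 had a counting interval of 0.447 to 223. A difference in Msmb was not detectable at this depth. Ren1 (ENSMUSG00000070645, chr1:133350510-133360325, plus strand) encodes renin, the protease that cleaves angiotensinogen, made chiefly by the kidney. It had 0 reads in all 9 libraries, which allows a mean of up to 0.0360 FPKM in BM, 0.0297 in R and 0.0336 in RD7 (3 reads over the group).

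In RD7 against BM limma called the same 6 genes higher, beside 21.5% higher and 25.3% lower over all genes. The comparison shares its libraries with the others. Its log2 fold changes were 8.38 ± 0.15 for Sbp, 5.23 ± 0.18 for Spink5, 4.42 ± 0.25 for Azgp1, 3.68 ± 0.28 for Defb50, 3.64 ± 0.17 for Apof and 2.36 ± 0.13 for Pbsn. Tgm4 stood at -0.25 ± 0.20 (limma adjusted p = 0.32).

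**Figure D3:**
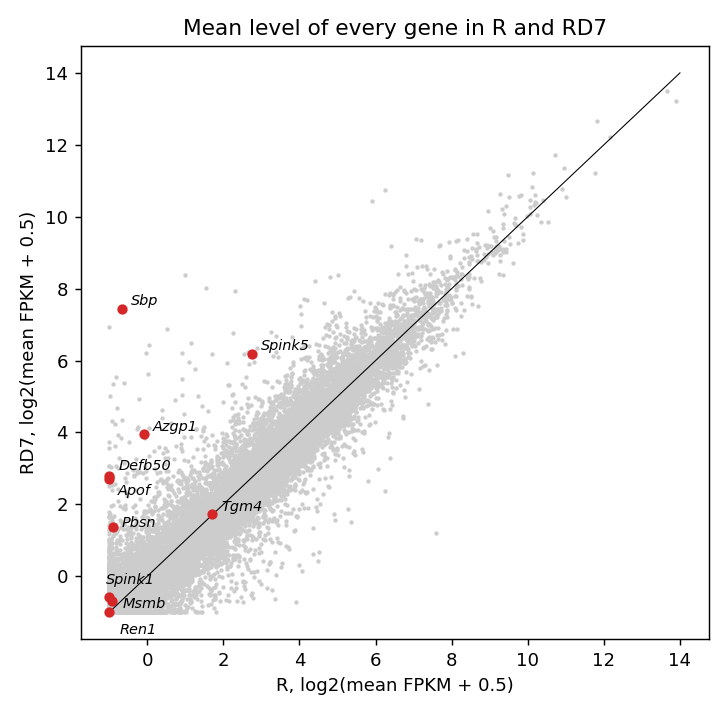
Mean level of every gene in R and in RD7, as log2(mean FPKM + 0.5), with the 10 genes in red and a line of equal levels. Sbp stands at 0.132 FPKM in R and 174 in RD7, far above the line, and Tgm4, at 2.75 and 2.81 FPKM, lies on it.

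The make-up of the secretory transcripts changed with the media. The 10 genes summed to 5.08 to 5.18 FPKM in the BM libraries, of which Tgm4 held 54.0% to 75.1%. In R they summed to 9.28 to 9.95 FPKM, and Spink5 held 61.3% to 68.4%. In RD7 they summed to 262 to 313 FPKM, and Sbp held 61.0% to 64.5%. Sbp and Spink5 together held 85.9% to 89.6% of the sum in RD7. As a share of all reads, the 10 genes went from 22.2 to 23.8 CPM in BM to 41.9 to 44.0 in R and 597 to 765 in RD7.

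**Figure D4:**
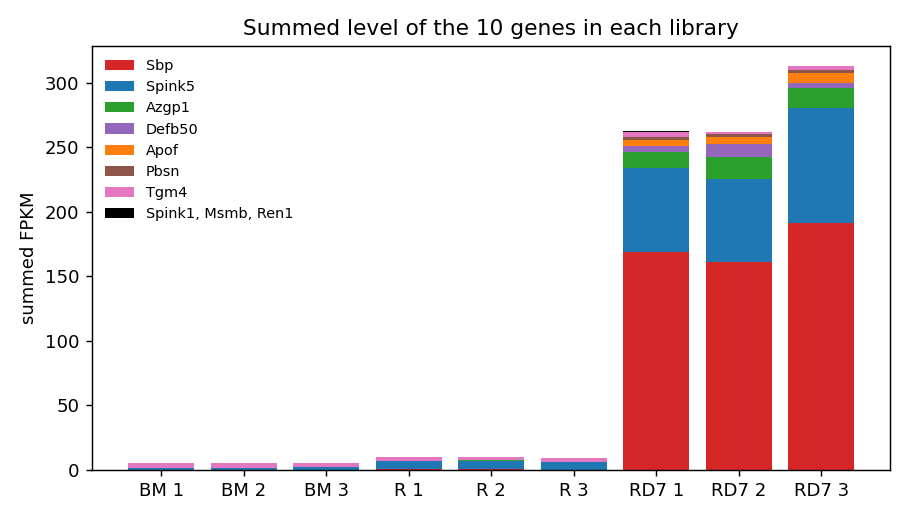
Summed FPKM of the 10 genes in each library, stacked by gene. The RD7 bars, at 262 to 313 FPKM, consist mostly of Sbp and Spink5, and the BM bars, at 5.08 to 5.18 FPKM, mostly of Tgm4.

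Other secreted proteins of the prostate did not all move as the genes above did. Of 20 further prostate secretion genes listed, 12 were tested. With R-spondin1, 4 fell and none rose, and the median of their log2 fold changes was -0.50 against 0.02 over all genes tested. With DHT, 7 rose and 3 fell, and the median was 0.85 against -0.09. The rise of Dmbt1 among the 7 (limma adjusted p = 0.048) was lost without BM 1 (0.056) and without each R and each RD7 library (0.057 to 0.17). It was also lost with the replicate block (0.067), a pseudocount of 1 (0.071), no filter (0.12) and plain empirical Bayes (0.059). Mmp7, a metalloproteinase whose exons overlap an antisense gene over 11.5% of their bases, rose from 60.0 ± 8.35 FPKM in R to 1383 ± 207 in RD7. Pigr, the receptor that carries immunoglobulin A into secretions, fell from 56.6 ± 19.3 in BM to 13.4 ± 1.72 in R and rose to 100.1 ± 18.1 in RD7. Lcn2, a lipocalin that binds bacterial siderophores, rose from 84.6 ± 16.4 to 587 ± 84.3, and Agr2, a disulfide isomerase of mucus-secreting cells, from 18.5 ± 4.97 to 68.5 ± 12.9. The chaperone gene Clu and the complement gene C3 fell at both steps, Clu from 1787 ± 259.6 to 786 ± 48.0 and 417 ± 68.2, and C3 from 69.9 ± 10.1 to 32.9 ± 6.99 and 14.4 ± 3.57. Dmbt1 fell from 1.17 ± 0.160 to 0.0866 ± 0.0543 FPKM with R-spondin1. These are means ± SD with n = 3.

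The seminal vesicle, a neighboring androgen-dependent gland, secretes a related set of proteins. Of 9 of its secretion genes in the files, Ceacam10 alone passed the filter. Ceacam10 stood at 0.519 ± 0.120 FPKM in BM and rose to 1.96 ± 0.148 in R (log2 fold change 1.28 ± 0.17, limma adjusted p = 8.3e-04) and to 11.1 ± 2.08 in RD7 (2.22 ± 0.17, limma adjusted p = 6.2e-06). Among the genes not tested, Svs2 had 1, 0 and 22 reads in BM, R and RD7, Svs5 had 2, 1 and 18 and Svs4 had 0, 0 and 3. Svs1, Svs3a, Svs3b, Svs6 and Pate4 were at 0 in RD7.

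The families of the secretory genes were followed from lists. None of 10 other Spink genes passed the filter, and 6 of them had any reads. Spink1 lies 226 kb before the start of Spink5 on chromosome 18, and Spink14, Spink6, Spink12 and Spink11 lie within 233 kb after it. Spink6 had 3 reads and Spink14, Spink12 and Spink11 none in RD7, where Spink5 had 18640. Among the 3 kallikrein-related peptidases listed as targets of LEKTI, Klk5 had 1 read over all libraries. Klk7 rose from 0.258 ± 0.132 FPKM in BM to 5.25 ± 0.570 in R (log2 fold change 2.93 ± 0.18, limma adjusted p = 5.0e-06) and fell to 0.388 ± 0.156 in RD7 (-2.70 ± 0.18, limma adjusted p = 2.7e-06). Klk14 rose from 0.0109 ± 0.0188 FPKM, 1 read over the BM group, to 1.31 ± 0.339 and fell to 0.0824 ± 0.143. Both peptidase genes were called at both steps and moved with Spink5 at the first and against it at the second. Klk14 passed the filter through the R libraries alone, so that its rise and its fall were bound to appear. The exons of Klk14 overlap an antisense gene over 22.6% of their bases.

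**Figure D5:**
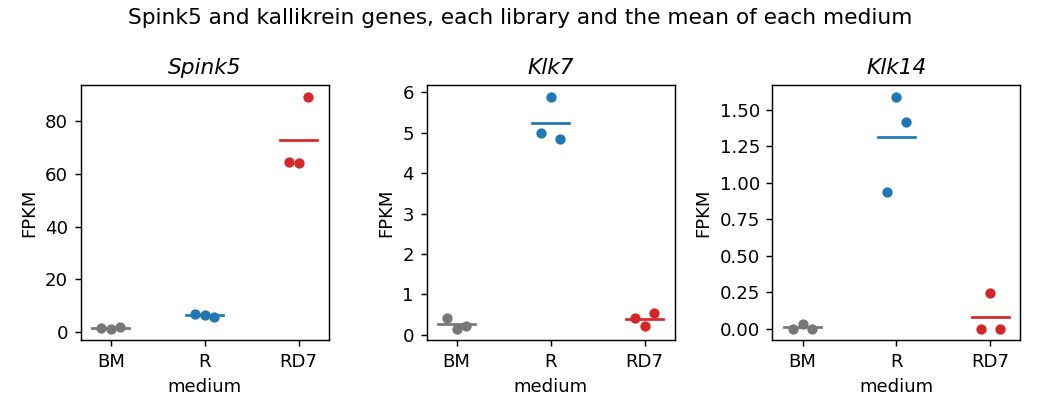
FPKM of Spink5, Klk7 and Klk14 in each library by medium, with a line at the mean of each group. Spink5 is highest in RD7 at 72.8 FPKM, whereas Klk7 and Klk14 are highest in R at 5.25 and 1.31 FPKM.

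Transglutaminases other than Tgm4 did move. Of 7 listed, 5 were tested, with a median log2 fold change of 0.54 in R against BM and -0.18 in RD7 against R. Over all genes tested these medians were 0.02 and -0.09. With R-spondin1, Tgm1, which cross-links the envelope of keratinocytes, rose from 1.87 ± 0.525 to 9.64 ± 0.181 FPKM, Tgm5 from 0.562 ± 0.153 to 1.95 ± 0.101 and Tgm3 from 0.0413 ± 0.0611 to 0.283 ± 0.0635. Tgm3 was not called without BM 2 (limma adjusted p = 0.054). It passed the filter through the R libraries alone, so that its rise in R and its fall with DHT were bound to appear. The median of 0.54 in R against BM is the value of Tgm3 and is a description only. Tgm2, the tissue transglutaminase, fell from 167 ± 45.6 to 57.4 ± 4.69 FPKM. With DHT, F13a1, the A chain of coagulation factor XIII, rose from 0.139 ± 0.0660 to 2.24 ± 0.604 FPKM and Tgm5 rose to 5.00 ± 0.950, while Tgm3 fell to 0.0273 ± 0.0356.

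Of 22 other β-defensin genes, 11 had reads and 2 were tested. Defb1 rose from 4.47 ± 0.628 FPKM in R to 246 ± 30.7 in RD7 (log2 fold change 5.63 ± 0.21, limma adjusted p = 6.4e-08), a level above that of Sbp. Defb2 rose from 0.220 ± 0.227 FPKM, 4 reads, to 12.9 ± 3.33 (4.24 ± 0.26, limma adjusted p = 1.3e-06). Defb2 passed the filter through the RD7 libraries alone, so that its rise was bound to appear. Defb1 was also called higher in R than in BM, where it stood at 2.18 ± 0.808 FPKM (0.92 ± 0.21, limma adjusted p = 0.018). That call was lost with limma-voom (limma adjusted p = 0.078) and without BM 1, BM 2, R 1 or R 2 (0.072, 0.066, 0.085 and 0.079).

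Genes that act with renin changed although Ren1 had no reads. Of 10 listed, 4 were tested, and 3 rose with DHT, beside 13.3% of all genes tested. The median log2 fold change was 2.21 against -0.09 over all genes tested. Agtr1a, a receptor of angiotensin II, rose from 0.0254 ± 0.0440 FPKM, 3 reads, to 19.6 ± 2.49 (log2 fold change 5.25 ± 0.15, limma adjusted p = 8.7e-09). Agtr1a passed the filter through the RD7 libraries alone, so that its rise was bound to appear, and the count and median are a description only. Ace, the angiotensin-converting enzyme, fell from 3.09 ± 0.979 FPKM in BM to 0.626 ± 0.221 in R and rose to 10.7 ± 2.56 in RD7. Atp6ap2, the prorenin receptor, rose from 37.6 ± 4.06 to 81.3 ± 2.85 FPKM. Agt, which encodes the substrate of renin, did not pass the filter and had 24 reads in R and none in RD7.

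Among the relatives of Apof and Pbsn, few genes passed the filter. Of 12 other apolipoprotein genes, 2 were tested. Apoe rose with DHT from 66.1 ± 8.93 to 116 ± 21.6 FPKM (limma adjusted p = 0.020), a call lost without R 3, RD7 2 or RD7 3 (0.078, 0.075 and 0.072). Apoh fell with R-spondin1 from 1.01 ± 0.160 to 0.534 ± 0.0390 FPKM (limma adjusted p = 0.024). The Apoh call was lost without BM 2, R 1, R 2 or R 3 (0.059, 0.11, 0.098 and 0.059), with the replicate block (0.063), with limma-voom (0.081) and with no filter (0.056). Of 12 other lipocalins, 3 were tested. Lcn2 was the only 1 called with DHT, and Orm1 was called with R-spondin1, from 1.89 ± 0.727 to 4.90 ± 0.399 FPKM (limma adjusted p = 0.0080).

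Among genes known to respond to androgen or to mark luminal cells, Fkbp5, a chaperone of steroid receptors, rose with DHT from 4.29 ± 0.737 to 109 ± 16.3 FPKM (mean ± SD, n = 3). Spdef, a transcription factor of secretory cells, fell from 5.59 ± 1.29 FPKM in BM to 1.95 ± 0.438 in R (log2 fold change -1.31 ± 0.19, limma adjusted p = 0.0015) and rose to 16.7 ± 0.717 in RD7. Hoxb13, a prostate homeobox gene, rose with DHT from 43.0 ± 4.50 to 246 ± 41.0.

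The genes whose profile was most like that of each secretory gene were found by Pearson correlation of log2(FPKM + 0.5) over the 9 libraries. The libraries fall into media, so r follows mainly the differences between media, and it is given as a description. For Sbp these were Crisp1 (r = 0.9992), Nkx2-6 (0.9991) and 9530002B09Rik (0.9989), which were at 0 in all BM and R libraries and at 1.48 ± 0.0913, 7.95 ± 0.907 and 123 ± 17.4 FPKM in RD7. Crisp1 encodes a cysteine-rich secretory protein known from the epididymis. Apof was most like 2300002M23Rik (0.9994), Lrat (0.9989), which esterifies retinol, and Asb11 (0.9988). Pbsn was most like Ttc39a (0.9975), 5430419D17Rik (0.9972) and Sbp itself (0.9964), and Azgp1 like Hoga1 (0.9951), Cers4 (0.9948) and Gclm (0.9939). Defb50 was most like Gm12872 (0.9971), Lcn6 (0.9966), a lipocalin gene, and Prss33 (0.9962).

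Spink5 had a different set of nearest profiles, with a step at R as well as at RD7. Cyp2b10, a cytochrome P450 gene, came nearest (r = 0.9958), at 5.16 ± 0.233, 15.9 ± 1.93 and 157 ± 20.9 FPKM in BM, R and RD7. Arl4d (0.9943) and Ceacam10 (0.9934) followed. Tgm4 was most like Erbb3 (0.9818), Chrnb2 (0.9729) and Fkbp15 (0.9658). Among themselves, the 6 genes called with DHT correlated at 0.913 (Spink5 and Defb50) to 0.996 (Sbp with Apof and with Pbsn), and Tgm4 correlated with each of them at -0.398 to -0.212. The 6 genes were grouped by their rise in the same RD7 libraries, so high r among them was bound to appear and is a description only.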

How the data were processed

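The deposited values are FPKM, 1 value per gene and library, made by the authors. Per the submitters' processing notes, CASAVA 1.9, STAR 2.6.1a, featureCounts, edgeR 3.24.1 and GRCm38 were used. How each was used, the gene annotation, the strand setting and any filters are not given in the sources used here. Per the labels' protocols, cDNA was amplified with a SmartSeq kit.

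Symbols came from GENCODE M21 (GRCm38), found for 99.5% of gene identifiers. Reads were read back as FPKM times exon length times the library total. They were whole within 0.01 of a read for 22971 of 26813 genes above 0 with the M21 length, and a length was fitted for the other 3842, among them Apof, Msmb and Spink1. Limma 3.58.1 (R 4.3.3) was fitted to log2(FPKM + 0.5) over all 9 libraries, with 1 mean per medium, 6 residual degrees of freedom and trend and robust empirical Bayes settings. Tests were two-sided, with Benjamini-Hochberg adjustment over all 15921 genes that passed the filter. Intervals of read ratios are exact and conditional, and floors are 3 reads.

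The 10 genes and the gene lists were chosen with earlier results of these data known. Every one of the 10 was named, with the 3 nearest profiles of each tested gene, and up to 4 called genes per list and comparison, those with the largest absolute log2 fold change; a few list genes are not reported here. Other settings were pseudocounts of 0.1 and 1, no filter, limma-voom, other scalings, plain empirical Bayes, a replicate block and leaving out each library. Python 3.11.15, pandas 2.3.3, numpy 2.4.6, scipy 1.17.1 and matplotlib 3.10.9 were used.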

Additional observations from a re-analysis of the deposited data

How the results depend on the processing

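All 13 calls of secretory genes, over the 3 comparisons, were kept in every setting that tested the gene. Sbp, Apof, Pbsn and Defb50 were tested in only 23 of 26 other settings. They passed the filter through the RD7 libraries alone, so that their calls were bound to appear, and that these were kept is a description only. Of 21 gene and comparison pairs, 1 changed: with a pseudocount of 0.1, Sbp was also called between R and BM (log2 fold change 0.90, limma adjusted p = 0.048), which made 2 genes instead of 1. Leaving out any 1 RD7 library lowered the number called to 2 in RD7 against R and in RD7 against BM, in a range of 2 to 6, because Sbp, Apof, Pbsn and Defb50 then reach 0.5 CPM in only 2 libraries and 7 genes fall under the filter instead of 3. With the genes tested held fixed, a choice made after seeing the data, 6 were called in each of these fits. With no filter, 1 gene (Ren1) could not be tested. Msmb was then not called, and Spink1, at 8 reads, was called, which made 7, in RD7 against R (log2 fold change 0.43 ± 0.07, limma adjusted p = 0.0042). Over all genes, limma called 1590 between R and BM, and 890 to 3337 with 1 library left out. The lowest was without R 1, and the highest, without BM 3, had 62.4% of calls higher instead of 43.6%. In RD7 against R it called 4931, and 3138 to 5727 with 1 library left out, and in RD7 against BM 7454, and 4675 to 8445. With the genes tested held fixed, R against BM gave 925 without R 1, 934 without R 2 and 3395 without BM 3, RD7 against R gave 3195 without R 2 and 3182 without R 3, and RD7 against BM gave 4828 without RD7 2. The replicate block left the number of secretory genes called at 1, 6 and 6. Same-numbered libraries did not deviate together (r of -0.52 to 0.271 over the pairs), so the numbers were not taken to pair samples. BM 1 had the fewest reads, and a gene with 0 reads there could stand at up to 0.461 CPM, against at most 0.188 in the others.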

Other observations

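Protein-coding genes within 100 kb of each secretory gene were counted, a set chosen after values had been seen. Of 62 such neighbors, 36 were tested, and with DHT 12 were called higher and 6 lower, beside 13.3% higher and 17.7% lower over all genes tested. Dcpp3, Dcpp1 and Defb2 passed the filter through the RD7 libraries alone, so that a rise was bound to appear in them, and the counts are a description only. The rises of Ncoa4 and Tmem42 were lost in 13 and 14 of 26 other settings, and the falls of Gm94 and Cs in 9 and 6. Neighbors are not independent of each other. Sbp and Defb50 had the neighbors with the highest log2 fold changes. Around Sbp, on chromosome 17, 4 of 5 tested neighbors rose and none fell. Dcpp3, a gene of the demilune cell and parotid protein family of saliva, lies 22.2 kb away and rose from 0.133 ± 0.0827 FPKM in R, 5 reads, to 19.8 ± 8.20 in RD7 (log2 fold change 4.94, limma adjusted p = 3.1e-07). Dcpp1 rose from 1 read over the R group to 4.79 ± 1.26 FPKM (3.31, limma adjusted p = 1.8e-06), and reads of these close relatives cannot be assigned with certainty. Prss32, a serine protease gene 81.9 kb away, rose from 0.328 ± 0.0407 to 16.5 ± 2.37 FPKM (4.35, limma adjusted p = 1.1e-07). Prss22 also rose, from a mean of 20.2 to 33.6 FPKM. Sbpl, the nearest gene at 7.5 kb and a relative of Sbp, had no reads in BM or R and 28 reads in RD7 and was not tested.

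Around Defb50, on chromosome 8, the 2 neighbors tested were Defb1, 28.4 kb away, and Defb2, 8.6 kb away, and both rose. Of the 5 untested neighbors, Defb15, 98.5 kb away, had no reads in BM or R and 17 in RD7, at 0.936 ± 0.555 FPKM. Around Apof, by contrast, 4 of 10 tested neighbors fell and none rose. Stat2, 0.4 kb from Apof, stood at a mean of 8.97 FPKM in R and 11.6 in RD7 and was not called (limma adjusted p = 0.29). Around Ren1, which had no reads, 4 of 5 tested neighbors rose and none fell, the same tally as for Sbp. Gm28040 and Golt1a, which are among these neighbors, overlap each other on the same strand. They may not be separate neighbors, and the tally is a description only. Etnk2, 3.2 kb away, rose from 0.505 ± 0.0514 to 1.34 ± 0.216 FPKM (limma adjusted p = 9.0e-04). Sox13, Gm28040 and Golt1a had log2 fold changes of 0.96, 0.85 and 0.74 (limma adjusted p of 0.013, 0.026 and 0.042), and each of these calls was lost without R 1 (0.052, 0.075 and 0.11). The Gm28040 call was also lost without R 2, R 3 or RD7 2 (0.052 to 0.082) and with no filter (0.07). The Golt1a call was also lost without R 2, R 3, RD7 2 or RD7 3 (0.06 to 0.12). A pseudocount of 1 (0.051) and no filter (0.1) lost it as well. No gene within 100 kb of Spink5 passed the filter.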
